A study of Mus musculus with 40 samples.

Results

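The genes described here encode the subunits of ion pumps: the vacuolar ATPase (V-ATPase), which acidifies lysosomes and the Golgi, and the P-type pumps Na,K-ATPase and the P5 ATPases. They were chosen by symbol, as rows that start with Atp6v0, Atp6v1, Atp6ap, Atp1b or Atp13a, which gave 34 of the 22417 genes in the table. By role they are 13 subunits of the soluble V1 domain, 2 peripheral d subunits of the V0 domain, 7 integral membrane V0 subunits, 3 V-ATPase accessory proteins, 4 Na,K-ATPase beta subunits and 5 P5 ATPases. The V0 subunit a3 is named Tcirg1 and falls outside the symbol rule.

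All cells were mouse embryonic fibroblasts (MEFs) of genotype GADD34-/-. GADD34 brings a phosphatase to the initiation factor eIF2alpha, and no cells with intact GADD34 are among the samples. Cells were untreated or exposed to 1 uM thapsigargin, an inhibitor of the ER calcium pump, for 0.5, 1, 2 or 4 h. The ER fraction was extracted with dodecyl maltoside after digitonin had released the cytosol fraction, and cycloheximide was given beforehand to hold ribosomes in place. From each fraction ribosome footprints, which mark positions of translating ribosomes, and mRNA were sequenced, with 2 libraries for each of the 20 combinations. Whether the 2 were grown as separate cultures is not stated, so the p-values cover the spread between these samples alone, which may be technical. ER footprints at 0.5 h have 1 library with values, so 39 of 40 libraries were used.

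The V-ATPase joins a V1 domain, which hydrolyses ATP in the cytosol, to a V0 domain, which carries protons through the membrane. V1 subunits are made on free ribosomes, whereas the integral V0 subunits, the accessory proteins and P-type pumps are inserted into the ER membrane during their synthesis. Na,K-ATPase beta subunits are glycoproteins that help the sodium pump to leave the ER for the cell surface. Fibroblasts express the broadly distributed forms of these subunits, and other forms belong to kidney, brain, testis or osteoclasts.

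Values are RPKM, which scales the reads of a gene by its length and by the reads of its library. A further weight for each fraction and time was found in the values. The deposited table leaves a gene blank in a library rather than at 0, and a blank was read as not measured. In footprints, 23 of the 34 genes were listed in at least 1 of 19 libraries, 11 in none and 8 in all 19. Over the whole table, 12845 genes were listed in at least 1 footprint library, 9572 in none and 2011 in all 19. The deposited table also carries an unnamed TRUE or FALSE mark for each gene. It read FALSE for all 15 V1 and d subunits and TRUE for all 19 other pump genes, against 8434 TRUE and 13983 FALSE in the whole table.

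Library depth, in reads recovered from the values, was 56857 to 9604852 for ER footprints, 122242 to 5388188 for cytosol footprints, 1502 to 162032 for ER mRNA and 48215 to 315658 for cytosol mRNA. Of 8 fibroblast markers 7 were listed and Thy1 was not, while the summed level of macrophage, epithelial or endothelial markers stayed at or below 1.73 RPKM in every footprint library, with Ptprc, Emr1, Lyz2, Epcam, Krt8, Krt18 and Pecam1 never listed. Of 4 muscle and neural markers 3 were listed, with a sum of 86.9 to 314 RPKM with thapsigargin and 91.2 to 163.5 RPKM in untreated cells. As a check of the fractions, the summed RPKM of 8 cytosolic proteins in cytosol footprints was 12567 to 25522 with thapsigargin and 18194 and 31956 in untreated cells. In ER footprints it was 8376 to 10741 with thapsigargin and 10349 and 10046 in untreated cells. A second sum took 8 proteins made at the ER. They are called secreted proteins here, although P4hb, Hspa5 and Hsp90b1 among them reside in the ER. Their summed RPKM in ER footprints was 5333 to 7702 with thapsigargin and 12056 and 14950 in untreated cells. In cytosol footprints it was 1590 to 10882 with thapsigargin and 1163 and 41.8 in untreated replicates 1 and 2. Cytosol footprints of untreated replicate 2 thus stand apart from all other cytosol libraries in their low content of secreted proteins, and the other untreated cytosol library lies lower than every thapsigargin library as well. Cytosol footprints at 0.5 h replicate 2 hold the 10882 RPKM and stand apart on the other side, since the other 7 cytosol libraries with thapsigargin hold 1590 to 2622 RPKM. That library is compared in no test, but the fits that include cytosol footprints take it into their spread and average level. It holds the highest cytosol level of Atp6ap1, Atp6ap2 and Atp6v0e. The content of secreted proteins moves with the group, and its part in the results below was not tested. Results that rest on the untreated libraries are given with and without them. For 0.5 h replicate 2 this holds for the counts at 0.5 h, as no fit left that library out.

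The promoters of the pump genes were read for the palindrome TCACGTGA, known from lysosomal genes and bound by the transcription factor TFEB. They were also read for CACGTG and TGATGNAA. Promoters were taken from RefSeq (GRCm38.p6), from 250 bases before to 50 after each start, and 25 of the 34 genes had an entry there. The palindrome occurred in 3 of these 25 genes, Atp6v1a, Atp6v0d1 and Atp6v0e, and in 0.974% of all 32851 promoters on either strand. It contains the shorter CACGTG, found in 5 of the 25 genes and in 7.15% of all promoters. TGATGNAA, a site type bound by ATF4, was found in 1 gene, Atp6v0d1, and in 3.97% of all promoters. The stretches around the palindrome of a V1 and a d subunit are shown since both genes return in the results below. That of Atp6v0e is not shown, as its match does not begin before the start. Capitals mark the palindrome, and both stretches run in the direction of transcription, on the minus strand, at chr16:44139338-44139437 and chr8:105566061-105566114.
Atp6v1a: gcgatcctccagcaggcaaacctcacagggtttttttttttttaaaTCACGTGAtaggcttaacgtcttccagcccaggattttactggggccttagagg
Atp6v0d1: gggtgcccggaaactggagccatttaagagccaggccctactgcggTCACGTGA
The match lies 132 bases before the start of Atp6v1a and begins 4 bases before that of Atp6v0d1. These letters are a description of the sequence and no measurement of binding.

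Footprint levels, which are per length and so can be set side by side, differed widely among subunits. Averaged over all 19 footprint libraries of both fractions, with blanks as 0, the highest level in each role belonged to Atp6v1e1 among V1 subunits (71.7 RPKM), Atp6v0d1 among d subunits (34.4 RPKM), Atp6v0e among integral V0 subunits (219.5 RPKM), Atp6ap1 among accessory proteins (74.7 RPKM), Atp1b3 among beta subunits (120.2 RPKM) and Atp13a1 among P5 ATPases (5.25 RPKM). Atp6v0c, the proteolipid that forms the proton-carrying ring, followed Atp6v0e with 185.7 RPKM. Within V1, Atp6v1a had 65.9 RPKM, Atp6v1g1 55.9, Atp6v1d 54.4, Atp6v1f 38.3, Atp6v1h 35.3, Atp6v1b2 29.1 and Atp6v1c1 10.5 RPKM. This order depends on the summary, as the median over listed libraries was 70.7 RPKM for Atp6v1g1 and 65.7 RPKM for Atp6v1e1. The a subunits of V0 were far lower, with 6.53 RPKM for Atp6v0a1, 2.62 for Atp6v0a2 and 1.00 for Atp6v0a4. The forms with no listed footprint library were Atp6v1c2, Atp6v1e2, Atp6v1g2, Atp6v1g3, Atp6v0d2, Atp6v0e2, Atp6ap1l, Atp1b2, Atp1b4, Atp13a4 and Atp13a5. Atp6v1b1 and Atp13a2 were each listed in 2 of 19 footprint libraries, at 0.913 RPKM or less. Reads of Atp6v0c may be shared with its pseudogenes Atp6v0c-ps1 and Atp6v0c-ps2, so its level is uncertain.

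**Figure D1:**
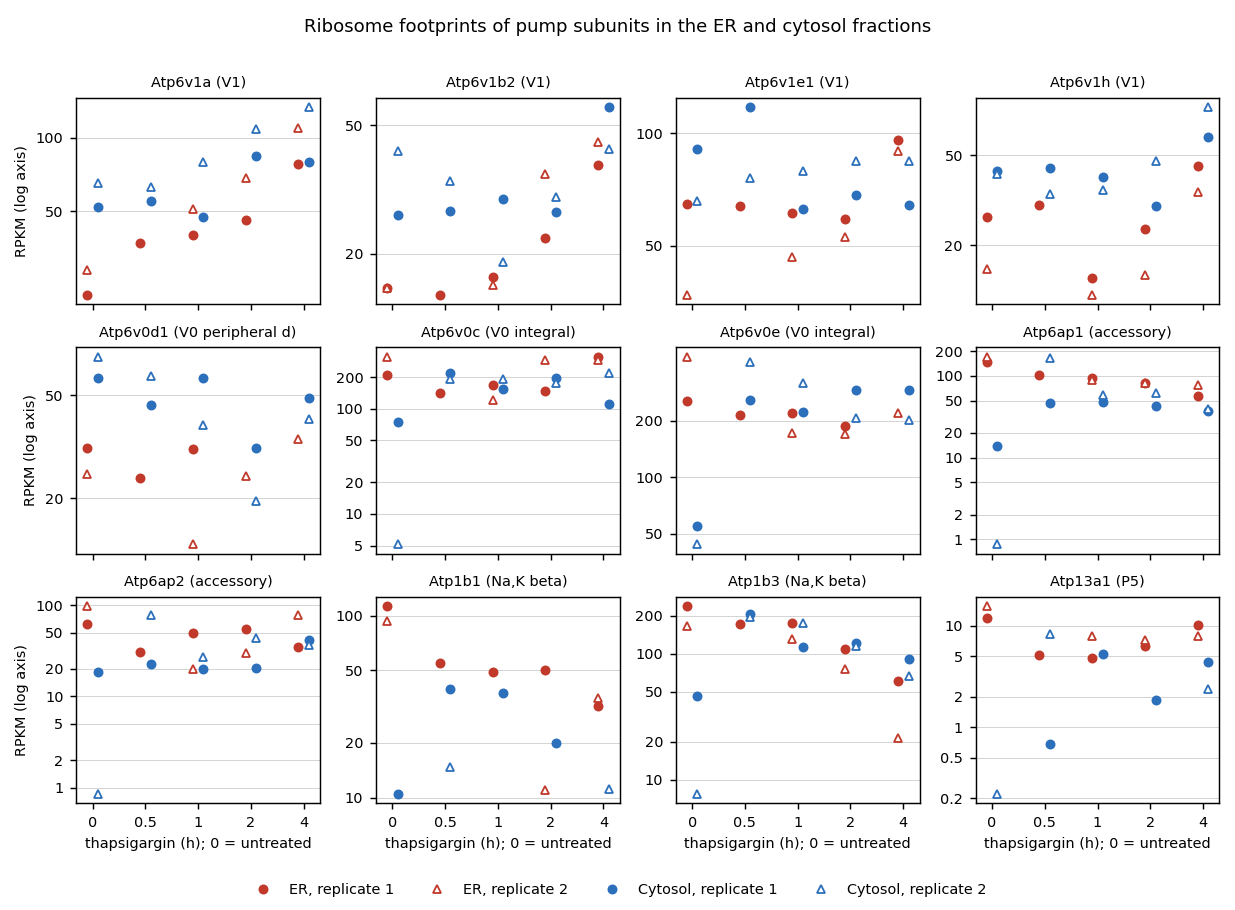
Footprint level (RPKM, log axis) of 12 pump subunits against time in thapsigargin (h, 0 is untreated). Each point is 1 library, red for ER and blue for cytosol, filled circles for replicate 1 and open triangles for replicate 2; Atp6ap1 has 57.3 to 102.0 RPKM in the ER with thapsigargin, against 148.3 and 172.3 RPKM in untreated ER, while Atp6v0e has 202.1 to 409.9 RPKM in the cytosol with thapsigargin, against 44.1 and 55.0 RPKM in untreated cytosol.

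The first comparison asks which subunits were translated at the ER. On average over untreated and treated times, footprints of Atp6ap1, Atp6ap2 and Atp6v0c were higher in the ER than in the cytosol, by 1.10 to 1.79 on the log2 scale. The first 2 are accessory proteins and Atp6v0c is the proteolipid. Footprints of the V1 subunits Atp6v1h, Atp6v1a and Atp6v1b2 were lower in the ER, by -1.05 to -0.45. The comparison averages untreated, 1, 2 and 4 h, and 8 of the 34 genes could be tested, since a gene had to be listed in all 16 libraries. Of these 8, 3 were higher in the ER and 3 were lower, where limma called 58.4% of all 2046 tested genes, 12.5% higher and 45.9% lower. In numbers of genes that was 256 higher and 939 lower, against 335 and 426 with every library set to the same median, and 356 and 286 with a weight per fraction divided out. The 4 tested membrane members had a median of 1.17 and the 4 V1 subunits a median of -0.54, beside -0.52 for the median of all tested genes. The V1 subunits thus lay near the middle of the table and the membrane members above it.

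Atp6ap1, the accessory protein also known as Ac45, had ER footprints of 148.3, 102.0, 94.5, 82.3 and 57.3 RPKM in replicate 1 at untreated, 0.5, 1, 2 and 4 h, and cytosol footprints of 13.8, 46.1, 47.4, 42.8 and 37.1 RPKM. In replicate 2 its ER footprints were 172.3 RPKM untreated, then 88.3, 81.3 and 77.1 RPKM at 1, 2 and 4 h, and its cytosol footprints were 0.864, 167.8, 58.2, 61.7 and 39.9 RPKM. The ER was the higher fraction in all 9 matched pairs. The difference was 1.79 (SE 0.37, limma adjusted p = 0.0019) and stayed past the threshold with each of the 16 libraries left out in turn.

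Atp6ap2, the accessory protein known as the prorenin receptor, had ER footprints of 20 to 97.6 RPKM (median 49.3) and cytosol footprints of 0.856 to 77.4 RPKM (median 24.6), which overlapped. It differed by 1.24 (SE 0.45, adjusted p = 0.029), and Atp6v0c by 1.10 (SE 0.40, adjusted p = 0.031). For Atp6ap2 the ER minus cytosol value was 1.71 and 5.73 in the untreated pairs. At 1, 2 and 4 h it was 1.25, 1.37 and -0.26 in replicate 1 and -0.40, -0.53 and 1.08 in replicate 2. For Atp6v0c it was 1.48 and 5.67 untreated and -0.67 to 1.48 at 1 to 4 h. The 2 averages thus do not describe every time. These 2 calls were the less stable ones, as they held in 10 and 7 of the 16 fits that left out 1 library. Atp1b3, a beta subunit of the Na,K-ATPase, did not pass the test, with 0.49 (SE 0.32, adjusted p = 0.2). In untreated cells its ER level was 237.9 and 165.2 RPKM and its cytosol level 46.1 and 7.78 RPKM, whereas with thapsigargin the cytosol was the higher fraction in 6 of 7 matched pairs.

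Atp6v1e1 had ER footprints of 36.9 to 95.9 RPKM (median 61.0) and cytosol footprints of 62.5 to 117.4 RPKM (median 77.4), and Atp6v1b2 had 14.9 to 44.3 RPKM (median 16.9) and 18.9 to 56.9 RPKM (median 29.7). The fractions overlapped for both genes. Among V1 subunits, Atp6v1h, the regulatory H subunit, had ER footprints of 12.1 to 44.9 RPKM (median 23.7, 9 libraries) and cytosol footprints of 29.7 to 81.2 RPKM (median 41.8, 10 libraries). It was lower in the ER in all 9 matched pairs and differed by -1.05 (SE 0.19, adjusted p = 0.0009). Atp6v1a, the catalytic A subunit, differed by -0.62 (SE 0.19, adjusted p = 0.015), and Atp6v1b2, the nucleotide-binding B subunit, by -0.45 (SE 0.18, adjusted p = 0.042). Atp6v1e1, of the peripheral stalk, did not pass the test at -0.29 (SE 0.18, adjusted p = 0.19). Setting every library to the same median ended the calls of Atp6v1a (-0.31, adjusted p = 0.29) and Atp6v1b2 (-0.14, adjusted p = 0.58), as did dividing out a weight per fraction found in the values (-0.22 with adjusted p = 0.41, and -0.06 with adjusted p = 0.83). Under these settings Atp6v1e1 changed sign, to 0.03 and 0.12, and of the 3 V1 calls that of Atp6v1h alone was kept, at -0.74 and -0.66. The call of Atp6v1b2 held in 4 of 16 fits that left out 1 library.

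Relaxing the rule on blanks, so that a gene needed 1 listed library in each group, brought in 8 more genes, a choice made after seeing the data. Among these the P5A ATPase Atp13a1, known as a remover of misplaced transmembrane helices at the ER, was higher in the ER by 1.61 (SE 0.39, adjusted p = 0.0086). The beta subunit Atp1b1 was higher by 1.32 (SE 0.44, adjusted p = 0.041) and the V0 subunit Atp6v0a1 by 1.23 (SE 0.39, adjusted p = 0.029). Under the relaxed rule limma called 498 of 4653 genes higher and 1170 lower, and the call of Atp6v1b2 ended. Atp6v0d1 had 13.3 to 33.9 RPKM (median 24.9) in 7 listed ER libraries and 19.6 to 70.5 RPKM (median 47.4) in 10 cytosol libraries. The integral V0 subunits Atp6v0b (0.88, adjusted p = 0.12) and Atp6v0e (0.42, adjusted p = 0.16) and the peripheral Atp6v0d1 (-0.69, adjusted p = 0.055) did not pass. Atp6v0d1 binds V0 from the cytosolic side. The V1 subunits Atp6v1d (-0.31, adjusted p = 0.35) and Atp6v1f (0.18, adjusted p = 0.72) did not pass either. Atp6v1g1, blank in both ER libraries at 4 h, stayed untested under this rule. With those blanks set to 0 it was called lower in the ER (-1.63, SE 0.28, adjusted p = 0.0038). In that fit limma called 364 of 9485 genes higher and 1631 lower.

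**Figure D2:**
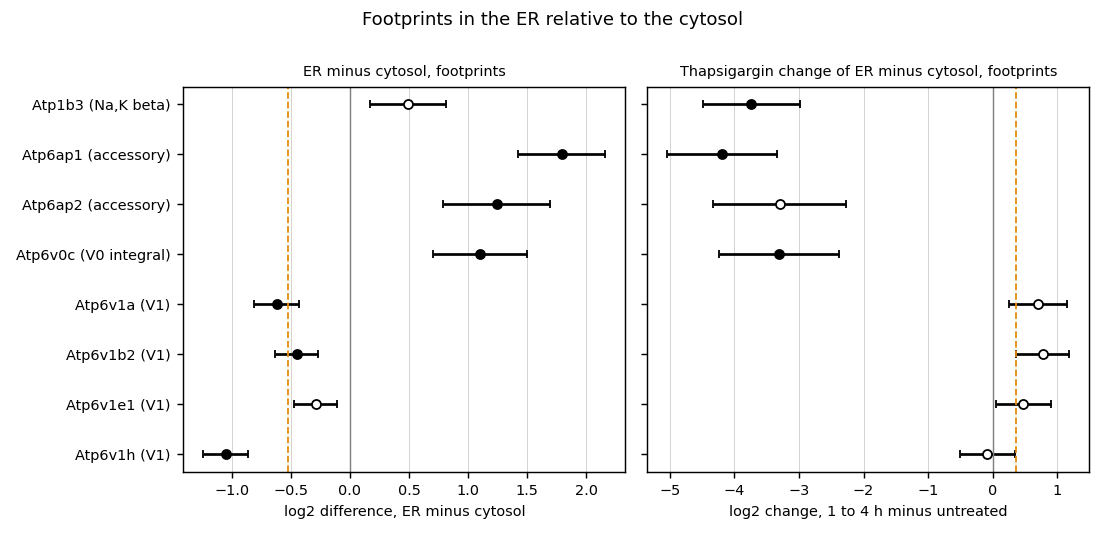
Log2 difference in footprints, ER minus cytosol (left), and its change with thapsigargin, 1 to 4 h minus untreated (right), for the 8 tested pump subunits. Points are limma estimates with SE, filled where the adjusted p is below the threshold of 0.05; the dashed line is the median of all tested genes (-0.52 left, 0.36 right), and the 4 membrane members lie right of that line on the left panel and left of it on the right panel.

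The next comparison asks whether the balance between the fractions changed with thapsigargin. The ER minus cytosol difference of Atp6ap1, Atp1b3 and Atp6v0c fell with thapsigargin, by more than 3 on the log2 scale. Of 8 tested subunits 3 were called lower and 0 higher, where limma called 8.65% of all 2046 tested genes, 7.82% lower and 0.831% higher. The 4 membrane members had a median of -3.52, with a range of -4.19 to -3.30, and the 4 V1 subunits a median of 0.59, with a range of -0.08 to 0.78, beside 0.36 for all tested genes. No V1 subunit passed the test.

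The change was -4.19 for Atp6ap1 (SE 0.85, adjusted p = 0.01), -3.74 for Atp1b3 (SE 0.75, adjusted p = 0.0096) and -3.31 for Atp6v0c (SE 0.93, adjusted p = 0.043). Atp6ap2, at -3.30 (SE 1.03, adjusted p = 0.065), did not pass. For Atp6ap1 the ER minus cytosol value of single pairs was 3.33, 1.13, 0.98, 0.93 and 0.61 in replicate 1 from untreated to 4 h. In replicate 2 it was 6.54 untreated, then 0.59, 0.39 and 0.93 at 1, 2 and 4 h. Both replicates of Atp6ap1 were lower at every time with thapsigargin than in their own untreated pair. For Atp6v0c the pairs gave 1.48, -0.61, 0.12, -0.40 and 1.48 in replicate 1. In replicate 2 they gave 5.67 untreated, then -0.67, 0.72 and 0.39 at 1, 2 and 4 h. The 4 h pair of replicate 1 thus equalled the untreated pair, and the fall of Atp6v0c was not seen there.

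The size of these changes rests largely on cytosol footprints of untreated replicate 2. Without that library the change was -2.70 for Atp6ap1, which was still called (adjusted p = 0.047), -2.53 for Atp1b3 (adjusted p = 0.052), -1.50 for Atp6v0c (adjusted p = 0.22) and -1.62 for Atp6ap2. All 4 membrane members kept their sign, and 1 of 8 subunits was then called, beside 45 genes of the whole table in place of 177. Without ER footprints of untreated replicate 2, 0 subunits and 23 genes were called at the adjusted threshold, and Atp6ap1 stood at -4.09 (adjusted p = 0.073). Atp1b3 also lost its call without either untreated ER library (adjusted p = 0.053 and 0.059), and Atp6v0c held its call in 2 of 16 fits that left out 1 library. Without cytosol footprints of untreated replicate 1, the change of the 4 membrane members was larger, at -5.69 for Atp6ap1 to -4.95 for Atp1b3. The integral V0 subunit Atp6v0e, blank in ER footprints at 4 h in replicate 1, entered under the relaxed rule on blanks with -3.09 (SE 0.50, adjusted p = 0.0046).

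The same pattern appears in the ER share of summed footprint RPKM, a description in which blanks count as 0. For V1 subunits the share was 29.8% to 45.6% with thapsigargin (median 41.2%, 7 pairs of libraries) and 39.9% and 34.4% in untreated replicates 1 and 2. For integral V0 subunits it was 37.8% to 57.0% with thapsigargin (median 44.9%) and 76.7% and 93.7% in untreated cells. With blanks as 0, the V1 ranges overlapped and the V0 ranges did not. In the 4 h pair of replicate 1, with a V0 share of 44.9%, Atp6v0e was blank in the ER and 291.7 RPKM in the cytosol. That blank lowers the share. In that pair the V0 sums were 327.7 RPKM in the ER and 402.3 RPKM in the cytosol, which includes the 291.7 RPKM. In untreated replicate 1 they were 518.2 and 157.3 RPKM, with 253.6 and 55.0 RPKM from Atp6v0e. With Atp6v0e left out of both pairs, the 4 h share is the higher one, so the V0 ranges then overlap. The accessory proteins had 51.3% to 68.3% with thapsigargin, against 86.7% and 99.4% untreated, and beta subunits had 42.2% to 60.1%, against 86.1% and 97.1%. The share of all genes was 28.4% to 43.3% with thapsigargin and 40.3% and 41.9% in untreated cells. These 3 membrane roles were thus above the share of all genes in untreated cells and nearer to it with thapsigargin. P5 ATPases had 25.5% to 100% with thapsigargin, against 92.8% and 98.4% untreated, so their ranges overlapped. Untreated replicate 1, whose cytosol library holds more secreted proteins than that of replicate 2, showed the smaller untreated share in each of these 4 membrane roles.

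**Figure D3:**
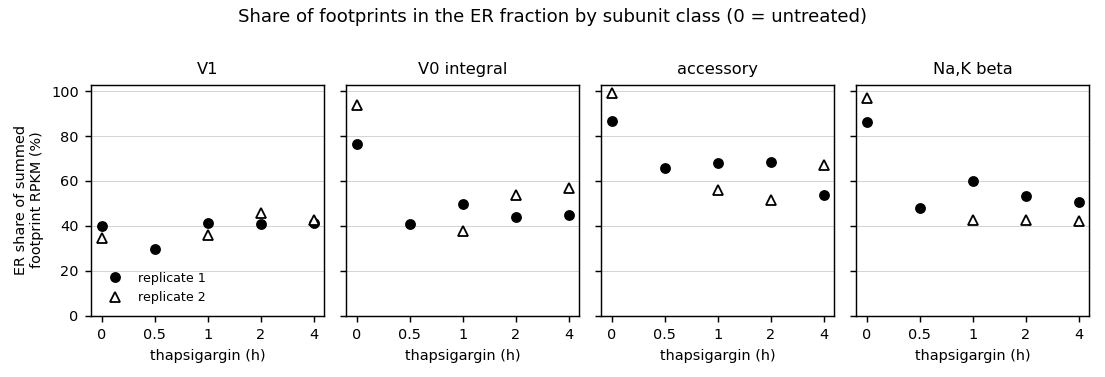
ER share (%) of the footprint RPKM summed over the subunits of a role, with blanks as 0, against time in thapsigargin (h, 0 is untreated). Each point is 1 pair of ER and cytosol libraries, filled circles for replicate 1 and open triangles for replicate 2. V1 stays at 29.8% to 45.6% with thapsigargin. Integral V0 has 37.8% to 57.0% with thapsigargin, against 76.7% and 93.7% untreated. In replicate 1 at 4 h Atp6v0e was blank in the ER, and the V0 ranges overlap without Atp6v0e.

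Within the ER fraction, footprints of Atp1b3 and Atp6ap1 fell over 1 to 4 h of thapsigargin, and footprints of the V1 subunit Atp6v1a rose. The comparisons within the ER at 1 to 4 h and at 4 h, and the change in balance above, share the same untreated ER libraries and are not independent. Of 9 tested subunits 2 were called lower and 1 higher, where limma called 33.3% of all 2241 tested genes, 13.3% lower and 20% higher. The 5 membrane members had a median of -0.93 and the 4 V1 subunits of 0.57, beside 0.14 for all tested genes. Changes in RPKM are relative to the other genes of the library, include a weight given to each fraction and time, and do not give total translation.

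Atp1b3 had ER footprints of 237.9, 172.5, 175.8, 109.5 and 60.7 RPKM in replicate 1 from untreated to 4 h. In replicate 2 they were 165.2 RPKM untreated, then 130.2, 75.3 and 21.4 RPKM at 1, 2 and 4 h. Both replicates had their lowest level at 4 h, and the 0.5 and 1 h values of replicate 1 lay above the untreated value of replicate 2. The 4 h values of Atp1b3 rest on 7 and 5 reads, against 4158 and 121 reads untreated. Its change was -1.31 (SE 0.40, adjusted p = 0.025) over 1 to 4 h, a call that ended without either untreated library or 2 h replicate 2, and -2.42 (SE 0.50, adjusted p = 0.0032) at 4 h. The other beta subunit, Atp1b1, had 11 to 55.1 RPKM in 6 listed libraries with thapsigargin, against 112.6 and 93.6 RPKM untreated, with no overlap. At 4 h its change of -1.59 (SE 0.57, adjusted p = 0.053) missed the threshold, and it passed with every library set to the same median (-1.83, adjusted p = 0.025).

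Atp6ap1 fell by 1.00 (SE 0.30, adjusted p = 0.022) over 1 to 4 h and had 57.3 to 102.0 RPKM with thapsigargin, against 148.3 and 172.3 RPKM untreated. Atp6ap2 (-0.93, adjusted p = 0.12) and Atp13a1 (-0.83, adjusted p = 0.063) did not pass, although every ER library of Atp13a1 with thapsigargin, at 4.80 to 10.1 RPKM, lay below the 11.8 and 15.5 RPKM of untreated cells. Atp6v0c showed no detectable change, with 120.3 to 310.3 RPKM with thapsigargin and 209.2 and 312.8 RPKM untreated (-0.31, SE 0.35, adjusted p = 0.52). Atp6v0e had 169.4 to 218.9 RPKM in 6 listed libraries with thapsigargin, against 253.6 and 437.9 RPKM untreated, and was not tested because of its blank at 4 h. Atp6v0c was thus the 1 integral V0 subunit of 7 that could be tested in the ER over 1 to 4 h. With either untreated library left out, limma called 0 of the 9 subunits over 1 to 4 h, and the adjusted p of the 3 called before was then 0.065 to 0.22, with 369 and 317 genes called in the whole table without replicate 1 and 2.

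Atp6v1a had ER footprints of 22.8, 37.1, 40.1, 46.3 and 78.2 RPKM in replicate 1 from untreated to 4 h. In replicate 2 they were 28.9 RPKM untreated, then 51.1, 68.7 and 110.0 RPKM at 1, 2 and 4 h. The groups did not overlap, and the level was highest at 4 h in both replicates. The change was 1.24 (SE 0.33, adjusted p = 0.012) over 1 to 4 h and 1.81 (SE 0.41, adjusted p = 0.0059), or 3.51-fold, at 4 h. In the cytosol Atp6v1a had 52.0, 55.1, 47.6, 84.0 and 79.3 RPKM in replicate 1 and 65.6, 63.0, 79.8, 108.9 and 133.2 RPKM in replicate 2, a change of 0.81 (SE 0.44, adjusted p = 0.27) at 4 h that did not pass.

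At 4 h alone, 3 of 11 tested subunits were higher in ER footprints and 2 were lower, where limma called 28.7% of all 3162 tested genes, 22% higher and 6.77% lower. All 3 that rose were V1 subunits, Atp6v1a, Atp6v1d of the central stalk (1.40, SE 0.43, adjusted p = 0.028) and Atp6v1b2 (1.33, SE 0.40, adjusted p = 0.025). Atp6v1d had 78.0 and 67.4 RPKM at 4 h, against 35.9 and 20 RPKM untreated, and Atp6v1b2 had 37.8 and 44.3 RPKM, against 15.6 RPKM in both untreated libraries. These 4 h values rest on 8 and 14 reads for Atp6v1d and 8 and 19 for Atp6v1b2. For Atp6v1a the 4 h reads were 20 and 57, and for Atp6ap1 11 and 30. Atp6v1g1, a V1 subunit with 47.7 and 41.7 RPKM in untreated ER, was blank in both 4 h ER libraries and so not tested. With blanks as 0 it was called lower at 4 h (-5.51, SE 0.54, adjusted p = 0.0035), and the counts were then 1 higher (Atp6v1a) and 3 lower (Atp6v1g1, Atp1b3 and Atp6ap1). Of all 8551 genes in that fit, 189 were higher and 645 lower, with a median of -0.92. The -5.51 comes from 4 h blanks set to 0, in libraries of 56857 and 125523 reads. Whether depth accounts for these blanks was not tested. Both that fell with blanks left out were membrane members, Atp1b3 and Atp6ap1 (-1.25, SE 0.39, adjusted p = 0.028). The 5 tested V1 subunits had a median of 1.33 and the 6 membrane members of -0.91, beside 0.44 for all tested genes. Integral V0 subunits did not fall past the test there. Atp6v0c stood at 0.23 (SE 0.44, adjusted p = 0.72). The a3 subunit Tcirg1, outside the symbol rule, rose by 1.73 (SE 0.48, adjusted p = 0.016). Atp6v1e1 and Atp6v1h, both at 0.91, did not pass (adjusted p = 0.12 and 0.13). Setting every library to the same median ended the calls of Atp6v1b2 (1.10, adjusted p = 0.062) and Atp6v1d (1.17, adjusted p = 0.06). Leaving out any 1 of the 4 libraries ended that of Atp6v1b2, and leaving out either 4 h library or untreated replicate 2 ended that of Atp6v1d. Atp6ap1 lost its call without either untreated library or 4 h replicate 1 (adjusted p = 0.1 to 0.17), and Atp6v1a without untreated replicate 1 (1.65, adjusted p = 0.054).

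**Figure D4:**
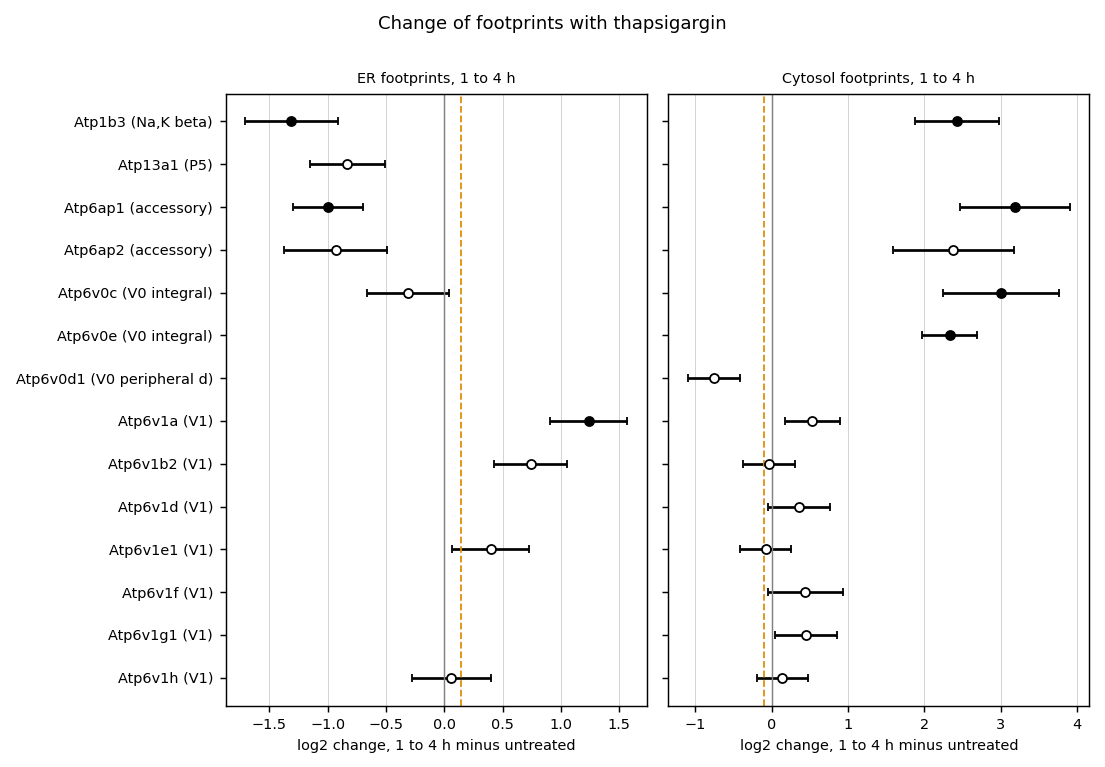
Log2 change in footprints over 1 to 4 h of thapsigargin relative to untreated cells, in the ER (left) and the cytosol (right). Points are limma estimates with SE, filled where the adjusted p is below 0.05, and the dashed line is the median of all tested genes (0.14 left, -0.10 right); a missing point is a subunit not tested there. Tested membrane members lie left of 0 in the ER and right of 0 in the cytosol, and V1 subunits lie right of 0 in the ER and within -0.08 to 0.53 in the cytosol.

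In the cytosol fraction, footprints of Atp6ap1, Atp6v0c, Atp1b3 and Atp6v0e rose over 1 to 4 h, and no V1 subunit changed past the test. Of 13 tested subunits 4 were called higher and 0 lower, where limma called 18.7% of all 4123 tested genes, 9.80% higher and 8.93% lower. The 5 membrane members had a median of 2.43 and the 7 V1 subunits a median of 0.36, with a range of -0.08 to 0.53, beside -0.10 for all tested genes. The peripheral Atp6v0d1 stood at -0.76 (SE 0.34, adjusted p = 0.14).

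Atp6v0e, a small subunit of the V0 membrane sector, had cytosol footprints of 55.0, 258.4, 222.4, 290.5 and 291.7 RPKM in replicate 1 and 44.1, 409.9, 316.2, 207.5 and 202.1 RPKM in replicate 2. Every library with thapsigargin lay above both untreated libraries, which differed little from each other. The untreated values of Atp6v0e rest on 7 and 108 reads. Its change was 2.33 (SE 0.36, adjusted p = 0.0045), or 5.01-fold, over 1 to 4 h and 2.28 (SE 0.44, adjusted p = 0.019) at 4 h. Without untreated replicate 2 the change was 2.17 with adjusted p = 0.057 over 1 to 4 h, and 2.12 with adjusted p = 0.11 at 4 h.

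Atp6v0c had cytosol footprints of 74.2, 217.9, 152.9, 194.9 and 110.5 RPKM in replicate 1 and 5.15, 191.8, 192.3, 176.9 and 221.2 RPKM in replicate 2. All 8 libraries with thapsigargin lay above both untreated libraries. The change was 7.99-fold on the log2(RPKM + 1) scale (SE 0.76 in log2, adjusted p = 0.024), with a log2 change of 1.19 (adjusted p = 0.19) without untreated replicate 2. Its call also ended without 2 h replicate 1, 1 h replicate 2 or 4 h replicate 2. Atp6ap1 rose by 3.19 (SE 0.72, adjusted p = 0.017) and Atp1b3 by 2.43 (SE 0.55, adjusted p = 0.017), and without that library these stood at 1.69 (adjusted p = 0.15) and 1.22 (adjusted p = 0.15). The untreated cytosol values rest on 18 and 24 reads for Atp6v0c, 10 and 12 for Atp6ap1 and 20 and 65 for Atp1b3. Atp6ap2 did not pass, at 2.38 (SE 0.79, adjusted p = 0.061), although its libraries with thapsigargin, at 20.2 to 77.4 RPKM, lay above the 18.3 and 0.856 RPKM of untreated cells. Without untreated replicate 2, 0 subunits were called by limma in the cytosol, and 74 genes of the whole table in place of 772, while all 5 tested membrane members kept a positive sign.

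At 4 h alone Atp6v0e was the 1 subunit called of 15 tested, where limma called 7.87% of all 4602 tested genes, 4.32% higher and 3.54% lower. The other 5 tested membrane members stood at 1.93 to 2.91, with adjusted p = 0.071 for the closest, Atp6ap1. The 8 tested V1 subunits stood at -0.98 to 0.81 with none called. With each of the 4 libraries left out in turn, the change ran from 2.01 to 2.54 for Atp6v0e and 1.07 to 4.68 for Atp6v0c. It ran from 1.41 to 4.40 for Atp6ap1, 1.05 to 4.43 for Atp6ap2 and 0.74 to 3.16 for Atp1b3. The call of Atp6v0e held in 1 of these 4 fits.

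By overlap of libraries alone, 5 of 8 membrane members listed in both untreated libraries, Atp6v0c, Atp6v0e, Atp6ap1, Atp6ap2 and Atp1b3, had every listed cytosol library with thapsigargin above both untreated ones, against 9.89% of 6723 genes in the whole table. Of 8 V1 subunits 1, Atp6v1c1, had every listed one below, with 7.67 to 20.8 RPKM against 38.6 and 23.4 RPKM, where 16.2% of genes did. In the ER 5 of 11 membrane members, Atp1b1, Atp13a1, Atp6v0a2, Atp6v0e and Atp6ap1, had every listed library with thapsigargin below both untreated ones, against 16.6% of 7053 genes. Of these, Atp6v0a2 was listed in 3 of 7 libraries with thapsigargin. Of 8 V1 subunits 2 had every listed one above, Atp6v1a in all 7 libraries and Atp6v1g1 in the 4 that list it, a share near the 25.7% of all genes. In the cytosol at 0.5 h, 6 of 8 membrane members and 1 of 8 V1 subunits had both libraries above both untreated ones, as did 25.1% of 5388 genes. With replicate 1 alone at 0.5 h, 6 of 8 membrane members and 5 of 8 V1 subunits lay above both, as did 37.6% of genes.

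The lists of related genes were counted in the same fits. Of 19 V-ATPase partners (assembly factors, chloride transporters, regulators and the a3 subunit), 2 to 5 could be tested in a footprint comparison. Tcirg1, the a3 subunit, rose in ER footprints at 4 h by 1.73 (SE 0.48, adjusted p = 0.016), and Lamtor1, which anchors the nutrient-sensing Ragulator complex to lysosomes, by 1.87 (SE 0.43, adjusted p = 0.0076), as 2 of 5 tested. Rnasek, a V0-associated membrane protein, rose in cytosol footprints over 1 to 4 h by 2.15 (SE 0.44, adjusted p = 0.012). It was 1 of 4 tested, where 9.80% of all tested genes were called higher. Its ER minus cytosol difference fell with thapsigargin by 2.12 (SE 0.59, adjusted p = 0.043), as 1 of 2 tested, where 7.82% of all tested genes were called lower. Of 25 other P-type pumps and their partners, 1 or 2 could be tested. Atp2a2, the ER calcium pump that thapsigargin inhibits, was higher in the ER by 2.00 (SE 0.48, adjusted p = 0.0042) and fell in ER footprints by 2.52 (SE 0.32, adjusted p = 0.00013) over 1 to 4 h and by 2.32 (SE 0.41, adjusted p = 0.0012) at 4 h. Atp2b1, the plasma membrane calcium pump, fell in ER footprints at 4 h by 1.63 (SE 0.54, adjusted p = 0.039). Fxyd5, a regulator of the Na,K-ATPase, rose in cytosol footprints over 1 to 4 h by 2.22 (SE 0.48, adjusted p = 0.014). Over all tested genes, 12.5% were called higher in the ER than in the cytosol. In ER footprints 13.3% were called lower over 1 to 4 h and 6.77% at 4 h. How the calls of related genes hold with single libraries left out is not shown here.

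Most pump genes were blank in at least 1 mRNA library of each comparison. No pump gene described here was listed in every mRNA library of the ER minus cytosol comparison, so 0 were tested there, where limma called 3.15% of all 825 tested genes. Under the relaxed rule on blanks Atp6v1g1 mRNA stood at -0.52 (SE 0.53, adjusted p = 0.82). Atp1b1 was listed in 6 ER libraries at 7.75 to 70.9 RPKM (median 27.4) and in 9 cytosol libraries at 4.42 to 23.9 RPKM (median 12.2). The fractions overlapped, and these values rest on 65 and 35 reads in all.

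**Figure D5:**
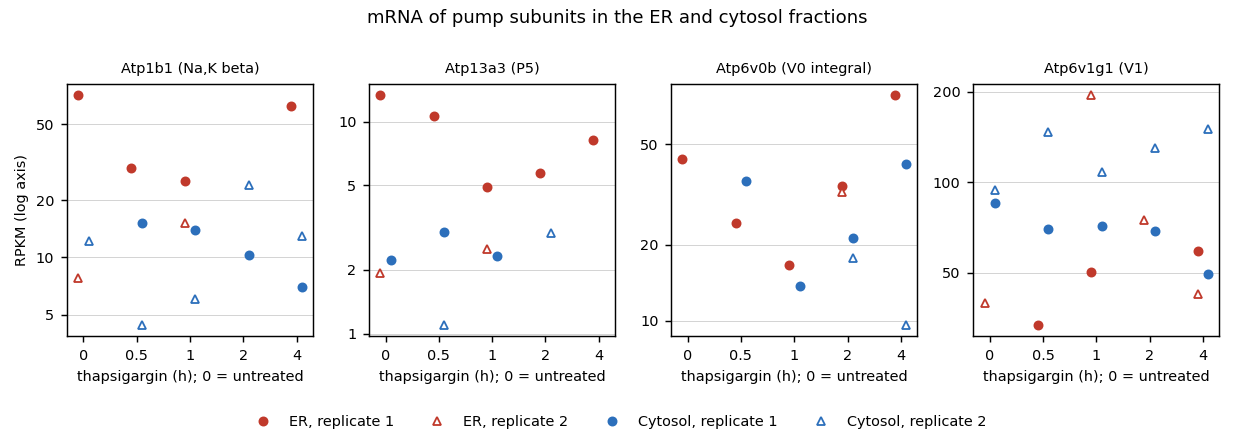
mRNA level (RPKM, log axis) of 4 pump subunits against time in thapsigargin (h, 0 is untreated), 1 point per library that lists the gene, red for ER and blue for cytosol, filled circles for replicate 1 and open triangles for replicate 2. Atp1b1 has 7.75 to 70.9 RPKM in the ER and 4.42 to 23.9 RPKM in the cytosol, and Atp6v1g1 has 33.6 to 194.6 RPKM in the ER and 49.6 to 150.6 RPKM in the cytosol.

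Atp6v1g1, a G subunit of the V1 stator, had the highest V1 mRNA level in the cytosol, with 49.6 to 150.6 RPKM (median 89.9) in all 10 libraries. In the ER it had 33.6 to 194.6 RPKM (median 50.5) in 7 of 10 libraries, and the fractions overlapped. Of membrane V0 mRNAs, Atp6v0b was listed in 6 ER libraries at 16.7 to 77.9 RPKM and in 6 cytosol libraries at 9.65 to 41.6 RPKM. Atp13a3, a P5 ATPase of polyamine transport, had 1.94 to 13.3 RPKM in 7 ER libraries and 1.10 to 3.02 RPKM in 5 cytosol libraries. Atp6v0c and Atp6v0e, the leading membrane subunits in footprints, were listed in 6 and 2 of 20 mRNA libraries. Both were thus blank in most mRNA libraries.

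Changes of mRNA with thapsigargin could be tested for Atp6v1g1 in the cytosol. Its mRNA changed by -0.00 (SE 0.62, adjusted p = 1), beside -0.71 for the median gene, where limma called 0 of 1605 genes (0%) at the adjusted threshold and 226 at an unadjusted p under 0.05. Footprints of Atp6v1g1 per mRNA in the cytosol changed by 0.45 (SE 0.74, adjusted p = 0.96), where 0.0780% of 1282 genes were called. In the ER, 0 of the 34 pump genes could be tested for mRNA or for footprints per mRNA.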

How the data were processed

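Per the labels' protocols, footprints came from an MNase digest and a directional small RNA kit, and mRNA from RiboMinus and TruSeq. The submitters' processing notes name Bowtie (version not given in the sources used here) and hg19, a human build, although the genes are mouse. The authors deposited 1 table of RPKM values, whose unit was read from the values: whole reads were recovered for all 13206 genes listed in at least 2 libraries. Each fraction and time was further weighted. The weight was 33.9% to 48.0% for the ER in mRNA replicate 2. In footprints it was 32.8% to 46.7% for the ER and 53.3% to 67.2% for the cytosol. limma 3.58.1 (R 4.3.3) was fitted to log2(RPKM + 1), on group means without a replicate block. A gene needed an average of 1 RPKM and a value in every library compared, and the fold changes of low genes are understated. P-values (2-sided) were Benjamini-Hochberg adjusted over all tested genes, with a threshold of 0.05. Times of 1, 2 and 4 h were averaged with equal weight, and fraction contrasts leave out 0.5 h. A further 4 rows that a wider symbol rule selects stayed in the fits and are not reported here. The pump genes, related lists and tests were chosen with earlier results of these data known. Named with values are pump genes past the threshold and, per role, those with the highest footprint level and the highest and lowest ER minus cytosol difference; related genes are named only where they passed. Reads are not unique molecules, and in bulk fractions fewer cells and less RNA per cell cannot be told apart. Alternatives were another pseudocount, no filter, blanks as 0, blanks in part (chosen after seeing the data), median centring and the weight divided out. Further ones were a replicate block and each library of the compared groups left out. Libraries at 0.5 h stayed in the fits throughout. Code was tested on simulated data.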

Additional observations from a re-analysis of the deposited data

Results flagged for a closer look

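The ER minus cytosol difference of footprints changed with thapsigargin for 3 membrane members by the test of that change itself (limma, adjusted over 2046 genes). It was -4.19 for Atp6ap1, -3.74 for Atp1b3 and -3.31 for Atp6v0c, where 7.82% of all tested genes were called lower. Without cytosol footprints of untreated replicate 2 these changes were -2.70, -2.53 and -1.50. For Atp6v0e the fractions moved in opposite directions: its highest ER value with thapsigargin was 218.9 RPKM, against 253.6 and 437.9 RPKM in untreated ER, and its lowest cytosol value with thapsigargin was 202.1 RPKM, against 44.1 and 55.0 RPKM in untreated cytosol. With all blanks excluded this difference was not tested, and under the relaxed rule on blanks it was -3.09 (adjusted p = 0.0046).

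Cytosol footprints at 0.5 h were compared in no test, although they enter the spread and average level of the fits. Of 17 pump genes listed in both 0.5 h and both untreated libraries, 7 had both 0.5 h values above both untreated ones, as did 25.1% of 5388 genes. These were 6 of 8 membrane members and 1 of 8 V1 subunits. The lower of the 0.5 h values was 194.8 RPKM for Atp1b3, against 46.1 RPKM or less in untreated cells, and 46.1 RPKM for Atp6ap1, against 13.8 or less. It was 22.42 RPKM for Atp6ap2, against 18.3 or less, and 36.21 RPKM for Atp6v0b, against 21.9 or less. It was 191.8 RPKM for Atp6v0c, against 74.2 or less, and 258.4 RPKM for Atp6v0e, against 55.0 or less. The V1 subunit was Atp6v1f, with 60.49 RPKM, against 37.6 or less. The low content of secreted proteins in untreated cytosol moves with these values, as does the high content in 0.5 h replicate 2 (10882 RPKM), and their part was not tested. Without 0.5 h replicate 2, 6 of 8 membrane members and 5 of 8 V1 subunits lay above both untreated libraries, as did 37.6% of genes.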

How the results depend on the processing

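Counts below are of pump genes called by limma at the adjusted threshold. With single libraries left out, the count ran from 3 to 7 for ER minus cytosol footprints, 0 to 4 for its change with thapsigargin, 0 to 5 for ER footprints over 1 to 4 h, 2 to 3 for ER footprints at 4 h, and 0 to 5 for cytosol footprints both over 1 to 4 h and at 4 h. In the mRNA comparisons it was 0 throughout. In footprints the number of genes called over the whole table also moved with the library left out. With blanks read as 0, 1 pump gene was called for ER footprints and 1 for cytosol footprints over 1 to 4 h. With blanks in part it was 5 for ER footprints over 1 to 4 h. Over all genes these settings called 883 of 8551, 415 of 9662 and 1197 of 4808. The cause was not tested. Of 66 single values, 66 kept their side of the threshold with a pseudocount of 0.1 and 66 with no filter, and 12 called values were lost with blanks as 0.

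Deviations of same-numbered libraries correlated at 0.18 to 0.38 in ER footprints and 0.35 to 0.74 in mRNA, over 0.1 in every pair of groups, and at -0.19 to 0.63 in cytosol footprints, over 0.1 in 7 of 10. No label says what a number stands for and there are 2 of them, so pairing was not taken as given. With the replicate block, 5 pump genes were called for ER footprints over 1 to 4 h, Atp13a1 (adjusted p = 0.038) and Atp6v1b2 (0.74, adjusted p = 0.05, just under the threshold) in addition, and Atp1b1 was called at 4 h (adjusted p = 0.002). Over all genes the block gave 93 calls for ER minus cytosol mRNA, 1212 and 827 for cytosol footprints over 1 to 4 h and at 4 h, 378 for cytosol mRNA, and 10 and 3 for ER and cytosol footprints per mRNA. Blanks as 0 gave 1995 calls for ER minus cytosol footprints, 8 for mRNA, 415 and 228 for cytosol footprints, and 15 and 2 per mRNA. Median centring gave 761 and the weight divided out 642 for ER minus cytosol footprints. The weight gave 54 for mRNA, and median centring 11 for ER footprints per mRNA. Blanks in part gave 290 for the change in balance and 1197 for ER footprints over 1 to 4 h. At most 1 pump gene could be tested in an mRNA comparison; mRNA libraries held 1502 to 315658 reads, and whether depth accounts for their blanks was not tested.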
